A study of Mus musculus with 52 samples.

Results

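Esrrb, Nr5a2 and Nr0b1 are genes of the nuclear receptor family that belong to the transcription network of naive pluripotency. The enhancer regions around them were chosen by position alone, as every region of the authors' EpiLC and mESC enhancer tables that lies inside a gene interval or within 100 kb of either end. This gave 13 regions of 25370 in all, namely 7 of 16576 EpiLC regions and 6 of 8794 mESC regions. The study made 9 libraries from epiblast-like cells (EpiLCs, harvested after 48 hours of differentiation), for H3K27ac and RNA polymerase II. It made 43 from mouse embryonic stem cells (mESCs, kept without feeders in LIF with GSK3 and MEK1 inhibitors), for these and for H3K27me2, H3K27me3, Med1 and H3.3. Of the 52 libraries 4 are inputs, and all are on a C57BL6/129Sv background. The mESC genotypes were cK27R (mutated at lysine 27 of canonical H3), pK27R (mutated there in all H3), SUZ12KO, lacking a subunit of the Polycomb complex PRC2, and, for the H3.3 libraries, a knockout of H3.3 and knockout lines to which wild-type (pK27WT) or K27R histone was returned, set against ABE control cells. The EpiLC genotypes were pK27R and SUZ12KO, set against ABE. Clones numbered 1 and 2 stand for cK27R, pK27R and pK27WT, and no clone number is given for SUZ12KO or the H3.3 knockout. The deposited tables hold regions and no value of any library, so every statement here is about regions, not about signal in any genotype, and nothing was tested. The EpiLC and mESC tables come from separate earlier publications, and a difference between the cell states cannot be told apart from a difference in how each table was defined.

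Nuclear receptors are transcription factors that read DNA through a zinc finger domain, and many bind hormones. ESRRB and NR5A2 (also called LRH-1) are orphan receptors that bind as monomers to the same extended half-site, TCAAGGTCA. In mESCs both sustain naive self-renewal, and NR5A2 acts on Pou5f1. NR0B1 (also called DAX1) lacks the zinc finger domain and acts as a corepressor that binds other factors, among them NR5A2. Esrrb is known to be turned down as cells leave the naive state for the EpiLC state.

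Matches to the extended half-site are shown first, because ESRRB and NR5A2 themselves bind it. The 13 regions held 7 distinct matches, 6 at Esrrb, 1 at Nr0b1 and 0 at Nr5a2. Each is printed 5′ to 3′ on the strand of the match, with 10 flanking bases on either side and the half-site in capitals. The first 2 lie in EpiLC regions of Esrrb alone, the next 4 in bases that both tables share, and the last in the mESC region of Nr0b1.
Esrrb, chr12:86479817-86479845, plus strand: ggtggcacctTCAAGGTCAatggctacac
Esrrb, chr12:86486883-86486911, minus strand: ggtgagaaatTCAAGGTCAccattagcta
Esrrb, chr12:86501707-86501735, minus strand: gagcaacagtTCAAGGTCAtgctcagcta
Esrrb, chr12:86502049-86502077, plus strand: catccctgctTCAAGGTCAactgaaaagc
Esrrb, chr12:86503541-86503569, plus strand: gatccgaagaTCAAGGTCAcccttgatcc
Esrrb, chr12:86504509-86504537, plus strand: gatccaaagtTCAAGGTCAgttttggagg
Nr0b1, chrX:86188269-86188297, plus strand: gatcagaagtTCAAGGTCAtcctttagta

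The RefSeq promoters of these genes that enhancer regions covered are shown next. They are 2 of the 5 RefSeq promoters of the 3 genes, and none of the 5 lies at the starts inside Esrrb that regions covered. These RefSeq sequences (GRCm38.p6) run from 250 bases before to 50 bases after a transcription start site (TSS), on the strand of the gene. Capitals mark a match to CCNCACCC, an element bound by KLF factors, on either strand. The inner Nr5a2 promoter lay wholly within regions of both tables, and the Nr0b1 promoter wholly within an mESC region and in no EpiLC region.
Nr5a2, inner promoter, chr1:136953581-136953880, minus strand: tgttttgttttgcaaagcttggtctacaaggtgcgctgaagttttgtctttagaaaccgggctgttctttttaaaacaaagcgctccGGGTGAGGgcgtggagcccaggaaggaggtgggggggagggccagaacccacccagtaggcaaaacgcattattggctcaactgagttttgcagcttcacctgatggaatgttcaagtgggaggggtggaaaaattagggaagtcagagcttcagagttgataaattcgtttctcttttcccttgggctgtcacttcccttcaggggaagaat
Nr0b1, chrX:86191525-86191824, plus strand: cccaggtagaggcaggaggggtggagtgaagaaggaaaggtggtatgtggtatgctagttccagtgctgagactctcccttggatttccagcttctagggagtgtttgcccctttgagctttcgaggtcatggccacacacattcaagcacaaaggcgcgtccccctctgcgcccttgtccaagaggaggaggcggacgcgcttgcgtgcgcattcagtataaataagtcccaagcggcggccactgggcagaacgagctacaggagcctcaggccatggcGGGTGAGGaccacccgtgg

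The 3 genes had 3 different layouts. Esrrb had 6 EpiLC and 2 mESC regions, all inside the gene. Nr5a2 had 1 EpiLC and 3 mESC regions, of which the EpiLC region and 1 mESC region lay at an inner promoter and the other 2 mESC regions upstream of the gene. Nr0b1 had 0 EpiLC regions and 1 mESC region, which covered its promoter. Most gene intervals have such regions nearby. Of 24198 intervals, 78.3% had at least 1 EpiLC region and 60.3% at least 1 mESC region inside or within 100 kb, so the presence of a region says little and the layout is what is described below.

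**Figure D1:**
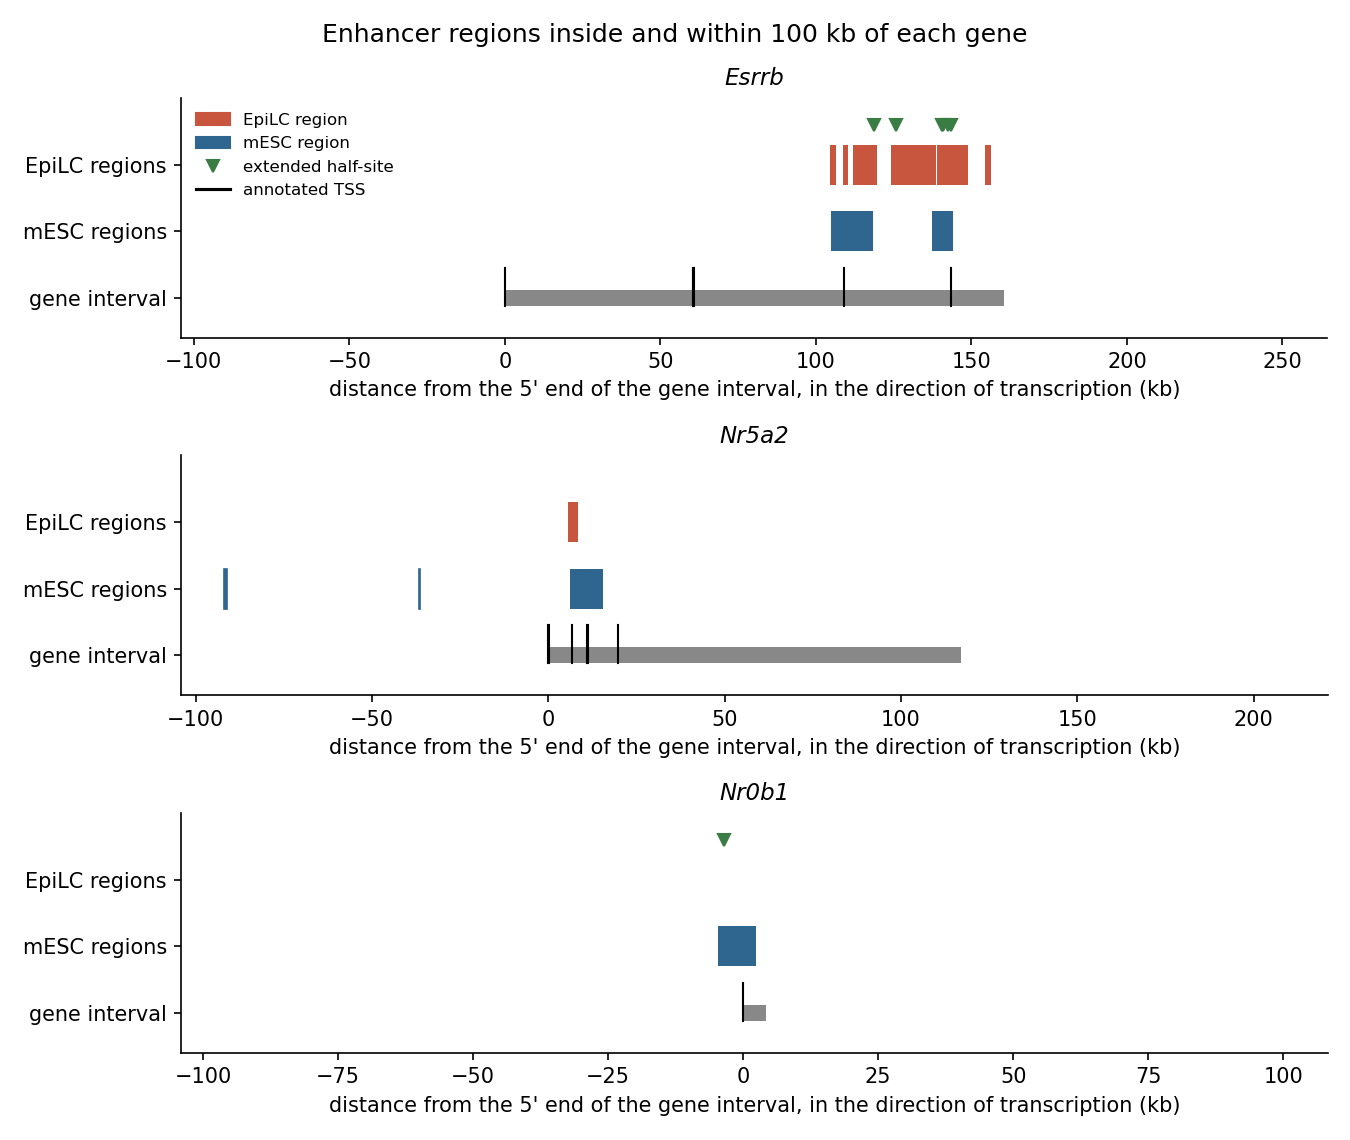
EpiLC regions (red) and mESC regions (blue) around Esrrb, Nr5a2 and Nr0b1, drawn along the distance in kb from the 5′ end of the gene interval in the direction of transcription, with the gene interval in grey, annotated start sites as black lines and matches to the extended half-site as green triangles. Esrrb regions lie, with gaps, from 104.6 to 156.3 kb inside the gene, the long Nr5a2 regions lie from 5.5 to 15.4 kb, and the single Nr0b1 region runs from -4.6 to 2.3 kb.

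At Esrrb, a gene of 160.5 kb on chromosome 12 (86361117 to 86521628, plus strand), the regions formed a dense block in the 3′ part of the gene. The 6 EpiLC regions, in gene order, measured 1800, 1685, 7675, 14300, 9920 and 1875 bp. They began 104.6 kb and ended 156.3 kb from the 5′ end, a span of 51.7 kb, and the gaps between neighbours ran from 0.43 to 5.45 kb. The EpiLC regions covered 23.2% of the gene interval and the 2 mESC regions 12.5%. Having 6 or more EpiLC regions in the window was not rare (14.0% of all intervals, 18.3% of the 2420 intervals in the same length decile), and 2 or more mESC regions were found at 29.2% of all intervals and 48.2% of the decile. The regions of 7675, 14300 and 9920 bp were long for the EpiLC table, whose median was 1750 bp, and 3.01%, 0.471% and 1.45% of it were as long. The other 3 were near that median. When EpiLC regions up to 12.5 kb apart were joined, a distance chosen after the values were seen, the Esrrb block held 37.3 kb of region, and 26 of 12380 joined blocks (0.21%, the Esrrb block included) held as much.

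The 2 mESC regions at Esrrb measured 13273 bp (86466097 to 86479369) and 6807 bp (86498436 to 86505242), against a table median of 711 bp. Regions at least as long made up 2.08% and 7.39% of the mESC table. Both belong to a block of rows, 2.63% of the table, that opens the mESC table in an order of its own. The publication that defined the table is known for separating super-enhancers, long clusters with dense Mediator and factor binding, from the rest, and reported as many of them as this block has rows. The table itself carries no such label.

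At Esrrb the regions of both tables overlapped in part. Of the 6 EpiLC regions 5 overlapped an mESC region, against 25.9% of the EpiLC table, and both mESC regions overlapped EpiLC regions, against 42.9% of the mESC table. Long regions overlap more often, and 96.5% of the rows in the opening mESC block overlapped an EpiLC region. The shared bases came to 15.73 kb, which was 42.2% of the EpiLC bases at Esrrb and 78.4% of the mESC bases. The 13273 bp mESC region was met by 3 EpiLC regions, which shared 1405, 1685 and 6268 bp with it. The 6807 bp mESC region ran across the 0.43 kb gap between the 14300 and 9920 bp EpiLC regions and shared 1291 and 5086 bp with them. Overlap with 2 or more EpiLC regions was found for 4.79% of the mESC table. The EpiLC region nearest the 3′ end, 86515527 to 86517401 in intron 6, was the one without an mESC counterpart. The count of shared regions changed with the rule for overlap. In gene order, the 5 EpiLC regions had 78.1%, 100%, 81.7%, 9.03% and 51.3% of their own bases in common with an mESC region. By a rule that 50% of both regions be common, 1 of the 6 EpiLC regions counted as shared. Both mESC regions belong to the opening block, and without that block 0 of the 6 did.

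The Esrrb block lay far from the promoters of the main coding transcripts. The GENCODE transcript that starts at the 5′ end of the interval (Esrrb-204, 7 exons) was 104.6 kb from the nearest EpiLC region and 105.0 kb from the nearest mESC region. Transcripts Esrrb-202 and Esrrb-203, which start at 86421644, were 44.1 kb from the nearest EpiLC region and 44.5 kb from the nearest mESC region. Regions of both tables did cover the start of Esrrb-206, a coding transcript that begins at 86470117, and of Esrrb-205, a noncoding one that begins at 86504409. By the exons of Esrrb-204, the region centres lay in intron 1, exon 2, intron 2, intron 3, intron 3 and intron 6 for the EpiLC table, and in introns 2 and 3 for the mESC table. A GENCODE start lay in 2 of the 6 EpiLC regions and in both mESC regions, against 26.4% of the EpiLC table and 7.64% of the mESC table. These shares were not matched for length, and the mESC regions of 13273 and 6807 bp were far above their table median of 711 bp. No other named gene interval had its 5′ end in the Esrrb window.

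At Nr5a2, a gene of 116.9 kb on chromosome 1 (136843584 to 136960448, minus strand), the 2 tables met at an inner promoter. The EpiLC region measured 2875 bp (136952077 to 136954951), a length reached by 25.6% of the EpiLC table. It covered the start of a coding transcript at 136953630, where RefSeq also places a promoter. The mESC region there measured 9327 bp (136945067 to 136954393), a length reached by 5.11% of the mESC table, and belongs to the opening block. It covered the same start and those of coding transcripts at 136949562 and 136949173. The start at the 5′ end of the interval (136960448) was 5.5 kb from the EpiLC region and 6.1 kb from the mESC region and lay in neither. Shared bases came to 2317 bp, which was 80.6% of the EpiLC region and 24.8% of the mESC region. By the rule that 50% of both regions be common, 0 EpiLC regions at Nr5a2 counted as shared.

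The other mESC regions at Nr5a2 were short and lay upstream, with no EpiLC counterpart. The nearer one measured 336 bp (136996834 to 136997169) and lay 36.4 kb before the gene. The farther one measured 676 bp (137051586 to 137052261) and lay 91.1 kb before the gene. Lengths of 336 bp and more made up 98.8% of the mESC table, so the nearer region was among the shortest. Of the named intervals in the gene table, Nr5a2 had the 5′ end nearest to both, although a GENCODE transcript start lay 6732 bp from the centre of the nearer region and 61654 bp from that of the farther one. With 3 mESC regions Nr5a2 stood with 12.4% of all intervals and 29.1% of its length decile, and with 1 EpiLC region below the median of 2 over all intervals. Having more mESC than EpiLC regions was found at 11.9% of all intervals.

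The limit of 100 kb mattered at Nr5a2. The farthest region inside it was the upstream one at 91.1 kb, and an EpiLC region of 1525 bp (136741577 to 136743101) lay just outside it, 100.5 kb beyond the 3′ end. Of the named intervals, that of another gene had the 5′ end nearest to this EpiLC region, 46.1 kb from its centre. From 100 to 200 kb there were 8 EpiLC and 3 mESC regions around Nr5a2, 2 and 1 around Esrrb, and 1 and 2 around Nr0b1. At Esrrb and Nr0b1 the nearest regions outside the limit were 172.1 kb and 139.3 kb away, both in the mESC table.

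At Nr0b1, a gene of 4.2 kb on chromosome X (86191775 to 86195946, plus strand), the single mESC region measured 6907 bp (86187171 to 86194077). It ran from 4.6 kb before the 5′ end to 2.3 kb into the gene, took in the start of the only annotated transcript (Nr0b1-201, 2 exons) and covered 55.2% of the interval. Lengths of 6907 bp and more made up 7.29% of the mESC table (641 regions) and 4.49% of its 245 chromosome X regions. Unlike the long regions at Esrrb and Nr5a2, it was not in the opening block, and neither were 79.7% of the 641 regions.

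On the interval itself, 27.4% of all genes had an EpiLC region and 13.5% an mESC region. No EpiLC region lay within 100 kb of Nr0b1, and the nearest was 174.1 kb from its interval. Of the 641 mESC regions of at least that length, 23.6% overlapped no EpiLC region. Intervals with at least 1 mESC region but 0 EpiLC regions made up 6.68% of all intervals. Chromosome X is sparse in both tables, with at least 1 EpiLC region at 46.1% and at least 1 mESC region at 38.2% of its 1014 intervals. Of the chromosome X mESC regions 29.8% overlapped an EpiLC region, against 42.9% of the whole mESC table. The window also held the 5′ end of Mageb4, a gene of the MAGE family, but Nr0b1 had the 5′ end nearest to the region.

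**Figure D2:**
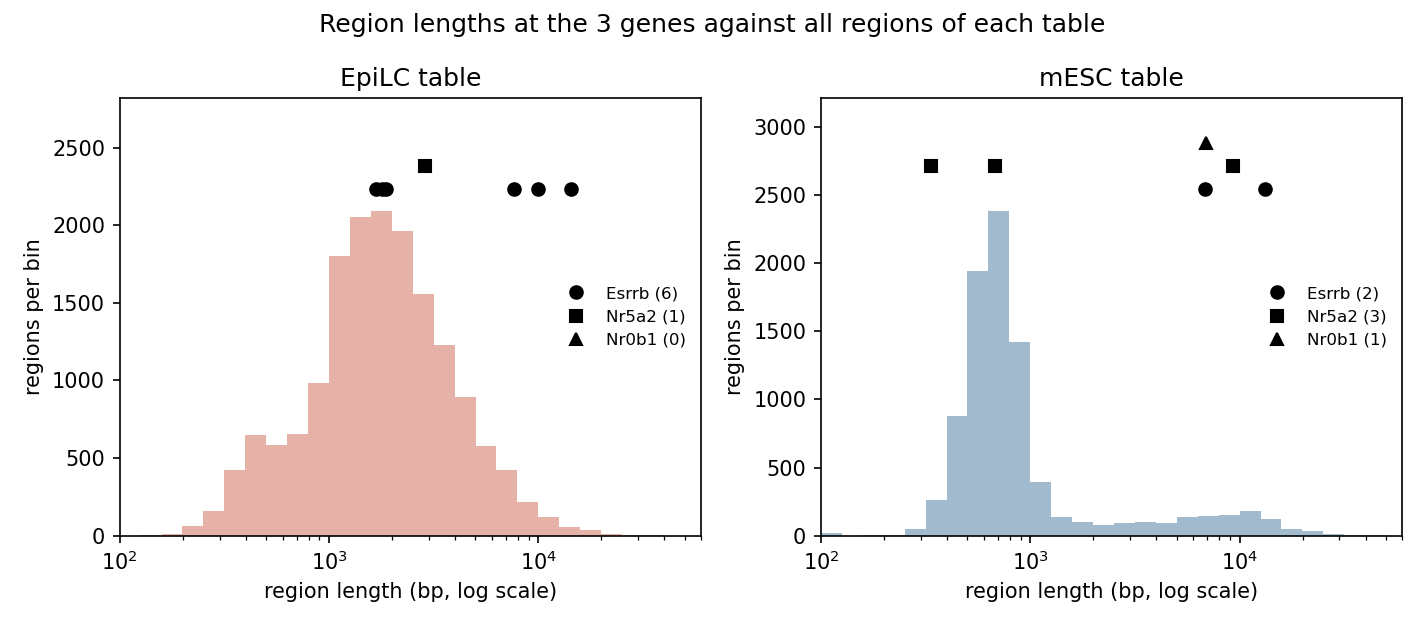
Histogram of region lengths (bp, log scale) in the EpiLC table (left) and the mESC table (right), in bins of 0.1 on the log10 scale, with the regions at Esrrb (circles), Nr5a2 (squares) and Nr0b1 (triangles) marked above at their lengths. Of the 6 marked mESC regions 4 measure 6807 bp or more and 2, both at Nr5a2, measure 336 and 676 bp.

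The matches to the extended half-site were concentrated in the second shared part of Esrrb. The central 300 bp of 1 of the 13 regions (the 6807 bp mESC region of Esrrb) held one, against 1.63% of all regions (1.09% of EpiLC and 2.66% of mESC regions), and the centre of so long a region is arbitrary. In whole regions at least 1 match was found in 3 of the 7 EpiLC regions, against 7.85% of the EpiLC table, and in 2 of the 6 mESC regions, against 8.05% of the mESC table. Longer regions hold more matches. Per length, matches came to 0.15 per kb in the EpiLC regions at the 3 genes, against 0.0373 per kb in the EpiLC table, and to 0.134 per kb in the mESC regions at the 3 genes, against 0.053 per kb in the mESC table. These rates rest on 6 and 5 matches, of which 4 are the same sites counted in both tables. The 9920 bp EpiLC region and the 6807 bp mESC region of Esrrb each held those 4 sites, which lay 140.6, 140.9, 142.4 and 143.4 kb from the 5′ end. The last of them was 110 bp from the start of Esrrb-205. At least 4 matches, a number chosen after the values were seen, were found in 4 of 16576 EpiLC regions (0.0241%) and 7 of 8794 mESC regions (0.0796%), the Esrrb regions included. Among regions at least as long as those of Esrrb the shares were 1.24% of 241 EpiLC and 1.08% of 650 mESC regions.

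The remaining half-sites lay singly. At Esrrb, 1 site each fell in the 7675 and 14300 bp EpiLC regions, at 118.7 and 125.8 kb and outside both mESC regions. At Nr0b1 the site lay 3.5 kb before the 5′ end, in the upstream part of the mESC region and outside the printed promoter. Of the 7 sites 4 lie wholly in bases that the reference marks as repeats, 3 at Esrrb (at 125.8, 140.6 and 143.4 kb) and the one at Nr0b1. At Nr5a2 no region held TCAAGGTCA, but the bases common to both tables held 2 matches to the looser TCAAGGNCA, neither wholly in a marked repeat. They are printed with the same flanks and the match in capitals.
Nr5a2, chr1:136952076-136952104, plus strand: tgttggaaatTCAAGGGCAcactcacgtt
Nr5a2, chr1:136953136-136953164, minus strand: ttaggtcaggTCAAGGGCAggcttgctct
The minus-strand site was 484 bp from the covered start at 136953630. The looser letters are common, and 23.0% of EpiLC and 18.0% of mESC regions held them.

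Other motifs were searched in the same way, each chosen for a factor of the naive or EpiLC state. Sites in bases that both tables share count in each table, so the rates in the 2 tables are not independent. CCNCACCC (KLF) occurred 0.623 times per kb in the EpiLC regions at the 3 genes, against 0.502 in the EpiLC table, and 0.857 times per kb in the mESC regions, against 0.538 in the mESC table. At Nr5a2 it reached 1.74 per kb in the EpiLC region (5 matches) and 1.06 per kb in the mESC regions (11 matches). Esrrb, with 37.3 of the 40.1 kb of EpiLC region, had 0.537 per kb in its EpiLC regions and 0.797 per kb in its mESC regions. The Nr0b1 region had 0.724 per kb. Both printed promoters held 1, and the match at Nr0b1 lay downstream of the start site. Both RefSeq promoters of Esrrb, which no region covered, held 1 as well. The outer RefSeq promoter of Nr5a2, also not covered, held none. Of all RefSeq promoters 16.6% held at least 1. The composite SOX2 and POU5F1 motif had 0 matches in the 13 regions, but only 1.12% of EpiLC and 2.26% of mESC regions held one. TTCCNGGAA (STAT3) had 0 matches as well, and occurred in 7.33% of EpiLC and 5.55% of mESC regions. The TFCP2L1 motif, a spaced pair of short elements, occurred 0.125 times per kb in the EpiLC regions at the 3 genes, against 0.128 in the EpiLC table, and 0.161 times in the mESC regions, against 0.109 in the mESC table.

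Of the motifs of EpiLC factors, GGATTA (OTX2) occurred 0.623 times per kb in the EpiLC regions at the 3 genes, against 0.469 in the EpiLC table, and 0.482 times in the mESC regions, against 0.475 in the mESC table. CCTGCTG (ZIC) occurred 0.449 times per kb in the EpiLC regions, against 0.391, and 0.268 times in the mESC regions, against 0.352. AACCNGTT (GRHL2) occurred 0.0249 times per kb in the EpiLC regions (1 match), against 0.0927, and 0.0536 times in the mESC regions (2 matches), against 0.0811. None of these rates was tested, and 2 motifs may overlap at a site. A match is a description of letters and not of binding.

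**Figure D3:**
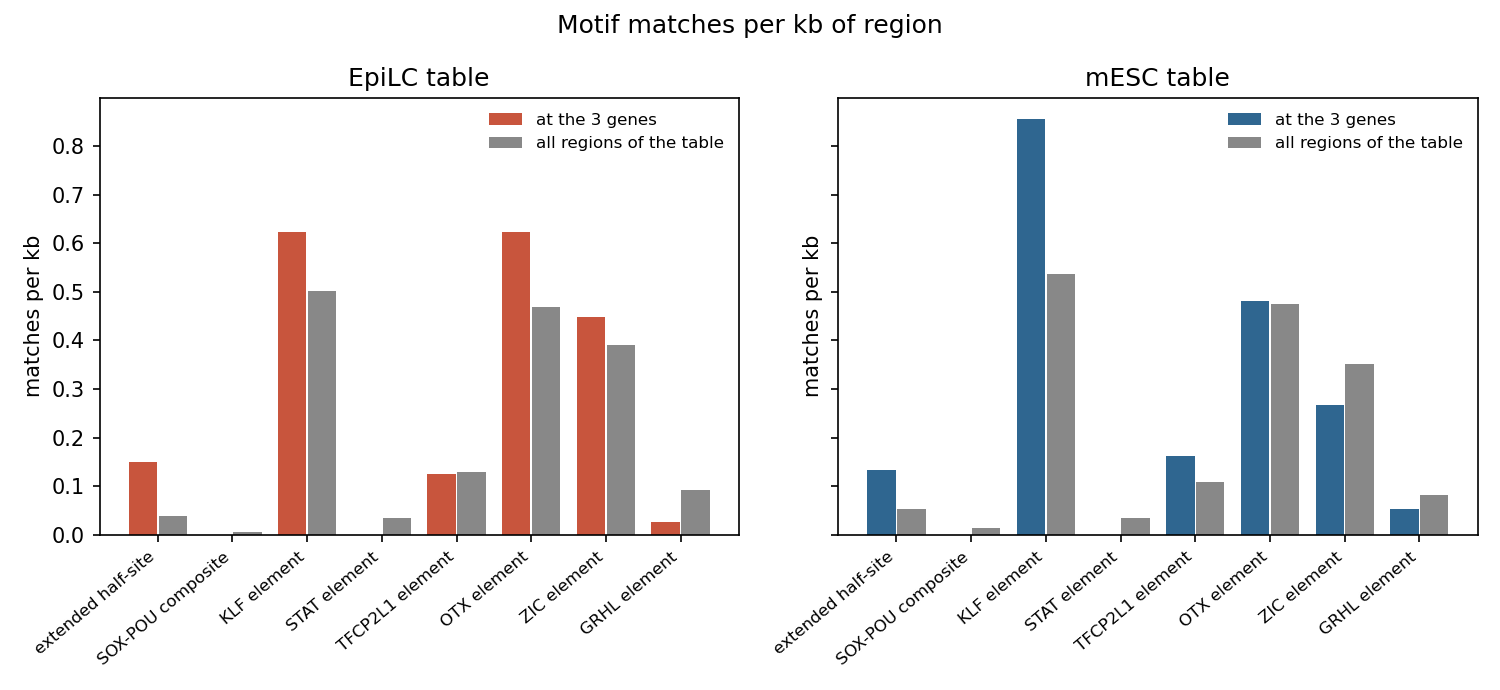
Matches per kb of region for 8 motifs, in the regions at Esrrb, Nr5a2 and Nr0b1 (coloured bars) and in all regions (grey bars) of the EpiLC table (left) and the mESC table (right). The extended half-site stands at 0.15 against 0.0373 per kb in the EpiLC table and at 0.134 against 0.053 per kb in the mESC table.

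Of 49 nuclear receptor genes, 48 could be matched to an interval. In the window 39 of these had an EpiLC region and 36 an mESC region, against 78.3% and 60.3% of all intervals. Their medians were 3 EpiLC and 1 mESC regions, against 2 and 1 over all intervals. The receptors with most regions were Rara (11 EpiLC and 2 mESC), encoding retinoic acid receptor alpha, Nr6a1 (8 and 3), encoding the germ cell nuclear factor, Esrrg (6 and 4), encoding a close relative of ESRRB, and Nr2c1 (6 and 3), encoding the orphan receptor TR2 and tied with Ppard (8 and 1). Windows of neighbouring genes overlap, so some regions count for more than 1 receptor. Esrrb was not exceptional by number, since 11 of the 48 had 6 or more EpiLC regions, against 14.0% of all intervals. It was the only one of the 48 with at least 5 EpiLC regions that overlapped an mESC region. This cutoff equals the count at Esrrb itself, and the next highest count among the 48 was 4. The cutoff was reached by 0.769% of all intervals and 5.27% of the 3376 with 6 or more EpiLC regions. By the rule that 50% of both regions be common, the count at Esrrb was 1. Nr5a2 was 1 of 6 of the 48 with 3 or more mESC regions, a count reached by 12.4% of all intervals. The nearest relatives of the other 2 genes, named after their values were seen, differed from them in layout. Nr5a1, encoding steroidogenic factor 1, had 3 EpiLC and 1 mESC regions, and Nr0b2, encoding the small heterodimer partner, had 3 and 0, none on either gene itself.

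Within a list of 29 genes of the naive network, medians were 5 EpiLC and 3 mESC regions. All 29 had at least 1 mESC region, against 60.3% of all intervals. An EpiLC region was found at 28, against 78.3% of all intervals, the exception being Nr0b1. It was also the only gene of the 29 on chromosome X, where 46.1% of intervals had at least 1 EpiLC region. Tcf7l1, encoding a repressor of the naive network, had most (13 EpiLC and 6 mESC), followed by Zfp281 (9 and 6), Nanog (7 and 5) and Sall4 (10 and 2), tied with Sox2 (9 and 3). With 6 EpiLC and 2 mESC regions Esrrb stood close to the medians. At least 5 EpiLC regions that overlapped an mESC region were found at 6 of the 29 genes (20.7%), Esrrb among them. Among the 48 nuclear receptors it was 1 (2.08%), again Esrrb. The cutoff equals the count at Esrrb. The lists also share Nr5a2, Nr0b1 and Nr6a1, so they are not independent. Nr5a2 and Nr0b1 were among the 5 genes of the 29 with more mESC than EpiLC regions, against 11.9% of all intervals. The others were Klf5, Tfcp2l1 and Lifr, named after their values were seen. By 3 counts (EpiLC regions, mESC regions and EpiLC regions that overlap an mESC region), the naive genes most like Esrrb were Prdm14 (8, 2 and 5) and Dppa2 (7, 2 and 3), where Esrrb had 6, 2 and 5. Dppa2 was tied with Dppa4 (7, 2 and 3) and Klf2 (6, 3 and 3). The windows of Dppa2 and Dppa4 on chromosome 16 overlap, so their counts are not independent. Most like Nr5a2 were Tfcp2l1, with the identical counts of 1, 3 and 1, and Lifr (2, 3 and 1). Most like Nr0b1, with 0, 1 and 0, were Stat3 (1, 1 and 1) and Dppa5a (2, 2 and 1). Dppa5a was tied with Tfcp2l1 and with Nr5a2 itself (both 1, 3 and 1). A list of genes of one network was chosen for its role in these cells, and its high counts are not independent evidence of anything about the 3 genes.

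**Figure D4:**
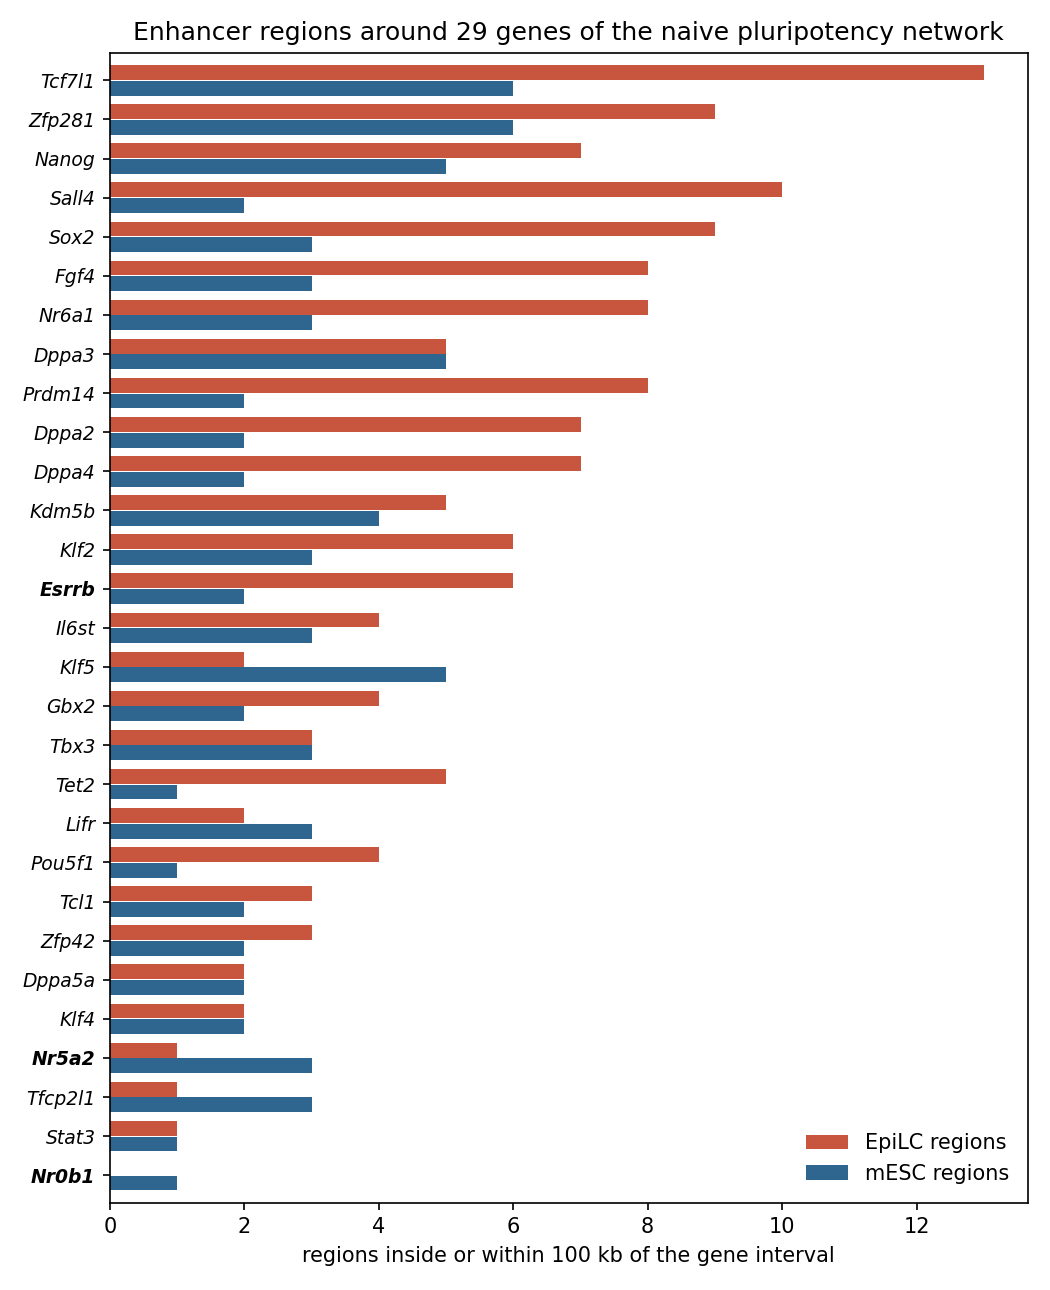
Number of EpiLC regions (red, upper bar) and mESC regions (blue, lower bar) inside or within 100 kb of 29 genes of the naive pluripotency network, ordered by their sum, with Esrrb, Nr5a2 and Nr0b1 in bold. Nr0b1 has 0 EpiLC regions and 1 mESC region, the lowest sum, and Nr5a2 has 1 and 3.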

How the data were processed

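The series holds 52 chromatin immunoprecipitation sequencing libraries in 34 groups, 16 with 1 library and 18 with 2. The deposited tables used here are 3 lists of regions in mm10, and they hold 0 columns with a value per library, so depth is unknown and no signal was compared. Per the series' design text, the authors took both enhancer lists from earlier publications and lifted them over to mm10. Trimmomatic 0.38, Bowtie2 2.3.4.1 and bedtools 2.29.2 are named in the submitters' processing notes, with no role or setting.

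Starts in the deposited tables were read as counting from 0, and 1 was added. For the gene table this gave 12029 exact RefSeq genes, against 329 without the shift. The enhancer tables were assumed to count alike, so region starts are uncertain by 1 bp. From 24402 gene intervals, 120 duplicates, 19 rows off the main chromosomes or past their ends and 65 rows longer than the longest RefSeq gene (3171119 bp) were left out, which kept 24198, of which 23680 received a name from RefSeq or GENCODE M21 (same ends, or an overlap of 0.8 or more of their union).

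A region belongs to a gene if it overlaps the interval or the 100 kb on either side of it. Regions of the 2 enhancer tables overlap if they share 1 bp. Counts at the 3 genes are set beside those at all 24198 intervals, with no test, since fixed region lists have no replicates. The 24198 windows overlap each other and are not independent. Motifs were searched on both strands of GRCm38.p6, whose primary chromosomes are those of mm10, in the central 300 bp and in whole regions. The overlap counting and motif search were tested on simulated regions with planted overlaps and motifs. Calculations used Python 3.11.15, pandas 2.3.3 and numpy 2.4.6. The genes, lists and motifs were chosen with earlier results of these data known. The text names the 3 genes, the 4 genes with most regions in each of 2 lists (nuclear receptors, naive network) and the 2 naive genes most like each of the 3. Other genes are named where the text says so.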

Additional observations from a re-analysis of the deposited data

How the results depend on the processing

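Of 49 alternative values for 13 counts, 31 stayed within 1.5 times the value reported and 18 moved further. With a flank of 200 kb, Nr5a2 had 9 EpiLC and 6 mESC regions and Nr0b1 had 1 EpiLC and 3 mESC regions. Inside the gene interval alone, Nr5a2 had 1 mESC region. Where 50% of both regions had to be shared, 1 EpiLC and 1 mESC region at Esrrb and 0 and 0 at Nr5a2 counted as common. With all regions at an equal width of 500 bp these counts were 0 at both genes. Without the opening block of the mESC table, 0 EpiLC regions at Esrrb and 0 at Nr5a2 overlapped an mESC region. This was fixed in advance, since every mESC region that overlapped an EpiLC region at these genes belongs to that block. The extended half-site was found in 5 of the 13 regions when whole regions were searched, and in 2 in the central 300 bp with the looser TCAAGGNCA or with the shorter AAGGTCA. The 6 counts of regions per gene and table were unchanged by a flank of 50 kb or by assigning regions to the nearest 5′ end, except for 2 mESC regions at Nr5a2 within 50 kb. Apart from the removal of the opening block, the cause of these moves was not tested. No paired analysis was possible because the tables hold no value per library. The region lists carry no depth, so nothing can be said of how firmly any one region was called.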

Other observations

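The regions at the inner promoter of Nr5a2 were rich in CpG for their tables. The ratio of observed to expected CpG was 0.48 in its EpiLC region, against a median of 0.24 in the EpiLC table, where 19.8% of regions were as high, and 0.43 in its long mESC region, against a median of 0.19 in the mESC table, where 4.58% of regions were as high. The upstream mESC region at 91.1 kb reached 0.47, which 3.49% of the mESC table reached. The mESC region at Nr0b1 had 0.33. At Esrrb the second EpiLC region, centred on exon 2, had 0.47, while the other 5 EpiLC regions lay between 0.16 and 0.23.

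The bases that both tables share at Esrrb hold a short direct repeat. In a stretch of 100 bases, chosen after the matches were seen with 0 bases marked as repeat in the reference, 2 identical matches to the TFCP2L1 motif (in capitals) lie 58 bp apart.
Esrrb, chr12:86503001-86503100, plus strand: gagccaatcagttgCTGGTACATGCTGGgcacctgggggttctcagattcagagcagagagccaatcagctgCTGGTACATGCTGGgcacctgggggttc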
